A study of Drosophila melanogaster with 2 samples.

Results

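The 10 genes described here handle glutamate in the fly nervous system: they load it into vesicles, take it up from the synapse, convert it to glutamine or sense it at the membrane. They were chosen by name (VGlut, Eaat1, Eaat2, Gs1, Gs2, GluRIA, Nmdar1, Nmdar2, GluClalpha and mGluR), and all 10 were found among the 11256 genes with reads. Messenger RNA was measured by poly(A) RNA sequencing in heads of female flies (Drosophila melanogaster, strain Canton-S), adults of 3 to 5 days. The ethanol group had breathed ethanol-saturated air for 15 min, until sedated, and then air without ethanol for 30 min. The control group breathed air without ethanol for 45 min. The study asks how head transcript levels differ shortly after sedation by alcohol. A single library was made per group, from some 180 flies, so the differences below have no replicates behind them and the treatment effect could not be tested. Whole heads hold brain, eyes, antennae, muscle and fat body, and in such bulk RNA fewer cells of a type and less RNA per cell cannot be told apart.

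In flies, as in other animals, glutamate released by neurons is cleared by carriers in the membrane of glial cells, which enclose the synapses. There, glutamine synthetase adds ammonia to it, and the resulting glutamine can return to neurons to be made into glutamate again. Glutamate is the transmitter of the fly's motor neurons and of a class of central neurons, where it can excite through cation channels, inhibit through a chloride channel, or act through a G protein-coupled receptor. In the vertebrate brain, ethanol is known to inhibit NMDA-type glutamate receptors.

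The glutamine synthetase gene Gs2 was 1.49-fold lower after ethanol, and Eaat1, GluRIA and mGluR were 1.47-fold, 1.46-fold and 1.32-fold higher. The ratios of VGlut, Eaat2, Gs1, Nmdar1 and GluClalpha had intervals that included 1. Reads were counted on RefSeq transcript accessions and summed per gene, and were scaled by the library totals of 11.8 M (control) and 11.0 M (ethanol) reads. Genes with 50 reads or more in the 2 libraries together counted as measured. Ratios are ethanol over control with a 95% Clopper-Pearson interval, which covers counting error alone, not the variation among flies or preparations. Of the 10 genes, 9 were measured and Nmdar2, with 14 reads in all, was not. None of the 9 was at least 2-fold higher or at least 2-fold lower with an interval that excluded 1, while 1.75% of the 7822 measured genes were higher and 0.741% lower by that rule. At 1.5-fold it was again 0 in either direction, against 5.97% higher and 2.86% lower. Gs2, at 1.49-fold lower, narrowly missed that cut and passed it under several of the alternative settings given at the end. Intervals lay above 1, at whatever fold, for 3 of the 9 (Eaat1, GluRIA and mGluR), a direction taken by 23.9% of measured genes, and below 1 for 1 (Gs2), against 15.0%. With 9 genes, these counts are near the background. The median log2 ratio of the 9 was 0.13, against 0.049 for all measured genes.

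**Figure D1:**
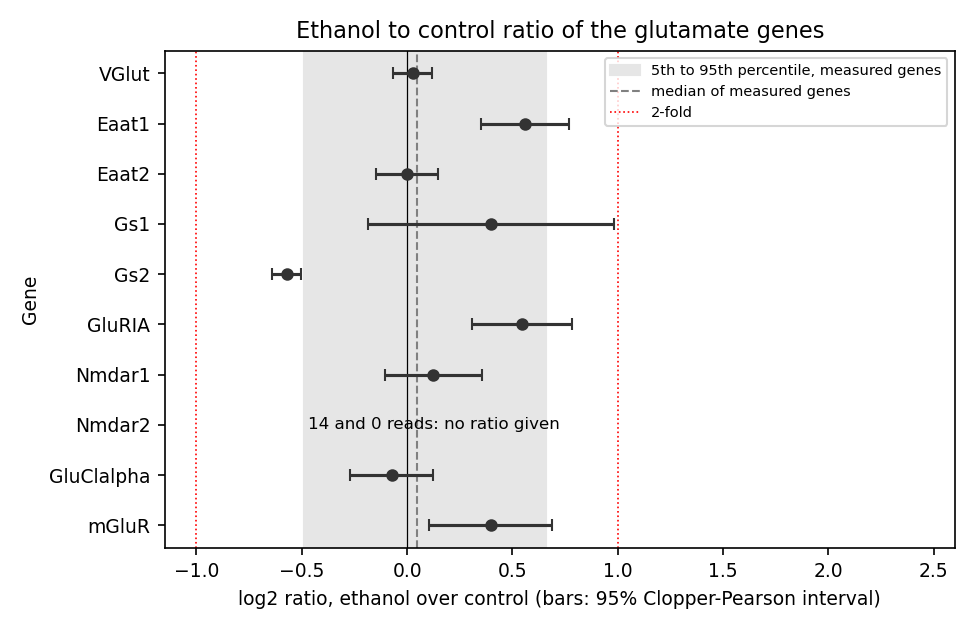
The log2 ratio of each glutamate gene (points, bars are 95% Clopper-Pearson intervals, 1 library per group) is set beside the 5th to 95th percentile of the 7822 measured genes (grey band) and their median (dashed line). Gs2, at -0.57, lies below the band, Eaat1, GluRIA and mGluR lie above 0 inside it, and no gene reaches the dotted 2-fold lines.

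Reads did not lie along the members' transcripts evenly, and this sets what each value stands for. The authors deposited, for each accession, the percent of its length covered by reads. For VGlut, GluRIA, Nmdar1 and mGluR, 4 of the 6 members listed with a single accession, coverage was 92.5% to 99.7% in both libraries, so their reads came from nearly the whole transcript. Gs2, Eaat1, Eaat2 and GluClalpha were each listed with 3 or 4 accessions. The leading accession of Gs2 had 4434 control reads yet was covered over 21.4% of its 1821 nt, which is 389 nt. Likewise, coverage in the control was 19.6% for Eaat1 (589 of 3011 nt), 13.3% for Eaat2 (406 of 3057 nt) and 67.3% for GluClalpha (2703 of 4014 nt). The same split ran through all genes. Accessions with 100 to 999 control reads had a median coverage of 96.0% where they were the gene's single accession in the files (3612 accessions) and of 30.4% where the gene had several (1108 accessions). At 1000 reads or more the medians were 98.6% and 41.0%. The counts of Gs2, Eaat1 and Eaat2 come from a small stretch of these transcripts, and how reads common to several accessions were treated is not stated in the labels or headers.

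**Figure D2:**
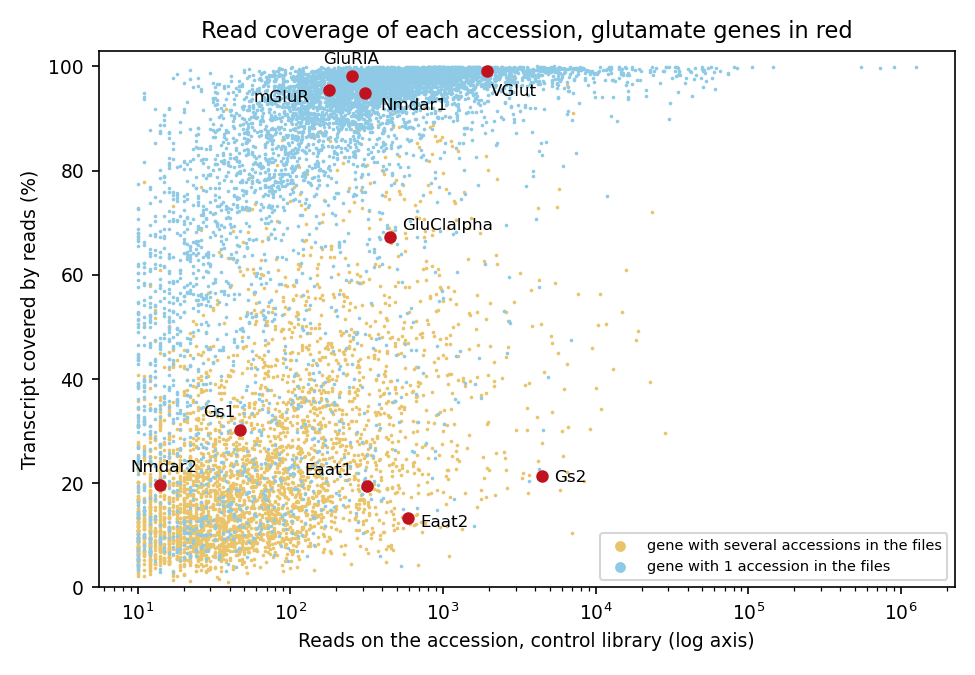
Each point is 1 accession with at least 10 control reads, with its reads (log axis) against the percent of its length covered in the control library, in blue where it is the gene's single accession in the files and in yellow where the gene has several. VGlut, GluRIA, Nmdar1 and mGluR (red) sit at 94.9% or more with the blue points, and Gs2, Eaat1 and Eaat2 sit at 13.3% to 21.4%.

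VGlut, the vesicular transporter that fills synaptic vesicles with glutamate and marks glutamatergic neurons, was the deepest measured member with full coverage. It had 1932 control and 1844 ethanol reads on its accession (NM_134837), which is 29.9 and 30.4 RPKM (reads normalised to transcript length and to depth). The 2 libraries differed little: the ratio was 1.02 with an interval of 0.955 to 1.09. With the trend of the ratio on transcript length removed, VGlut, at 5496 nt one of the longer transcripts, had a log2 ratio of 0.19 in place of 0.026. Its interval then lay above 1. The vesicular transporters of other transmitters are of interest beside it. VAChT, for acetylcholine, counted 3765 reads in the control and 2950 after ethanol (log2 ratio -0.26, -0.33 to -0.19). For Vmat, which carries monoamines, the counts were 1295 and 998 (-0.28, -0.40 to -0.16). VGAT, for GABA, had 227 and 250 (0.23, -0.033 to 0.498). Of the 4 genes in that list, including prt, 0 passed 2-fold in either direction, and the median was -0.24. Intervals lay below 1 for 2 of them, against 15.0% of all measured genes. The transcripts of VAChT (7147 nt) and Vmat (7330 nt) are longer than that of VGlut, and those of VGAT (1650 nt) and prt (2167 nt) shorter. The part of the length trend in these ratios was not tested.

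Eaat1 and Eaat2 encode the fly's excitatory amino acid transporters. Eaat1 is the high-affinity glutamate carrier of astrocyte-like glia, and Eaat2 prefers aspartate and taurine. Eaat1 had 329 control and 454 ethanol reads, or 28.0 and 41.2 RPM (the usual reads-per-million scale), and was 1.47-fold higher after ethanol (interval 1.27 to 1.70). Eaat2 had 782 and 732 reads, or 66.5 and 66.4 RPM, a ratio of 0.998 (0.902 to 1.11). Eaat1 had the highest ratio of the 9 measured members, above 92.6% of measured genes, whereas Eaat2 stood in the middle. Their relation can be read without any scaling of the libraries. There were 0.421 Eaat1 reads for each Eaat2 read in the control and 0.620 after ethanol, a log2 difference of 0.56 with an interval of 0.30 to 0.82.

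The 4 accessions listed for Eaat1 carried very unequal shares. NM_058080 had 317 and 440 reads, 96.4% of the gene's control reads and 96.9% of its ethanol reads, and the other 3 had 10 reads or fewer each in either library. The ratio of Eaat1 is therefore that of 1 accession, at 1.48-fold (1.28 to 1.72). Eaat2 divided its reads more widely. NM_058079 held 587 and 521 reads, a share of 75.1% (interval 71.9% to 78.1%) in the control and 71.2% (67.7% to 74.4%) after ethanol, and the intervals overlap. NM_001169373 had 188 and 193 reads, and NM_001169374 had 7 and 18 reads (ratio 2.74, 1.09 to 7.77). The reads of the latter are under the floor of 50 that was used for genes.

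Glutamine synthetase, which makes glutamine from glutamate and ammonia, has a mitochondrial form encoded by Gs1 and a cytosolic form encoded by Gs2. Gs2 is the form known from glia and neuropil in the fly brain. It had 4563 control and 2878 ethanol reads, or 388 and 261 RPM, a ratio of 0.673 (0.642 to 0.705), so that the control level was 1.49-fold that after ethanol. Gs2 was the most abundant member in both libraries and the one measured member whose interval lay below 1. Among the 2479 genes with at least 1000 reads over both libraries, 22 had a lower ratio. Gs1 had 47 and 58 reads, with a ratio of 1.32 and an interval that included 1 (0.881 to 1.98). That interval, nearly 2-fold at its upper end, leaves smaller differences in Gs1 unresolved. It was covered over 30.3% and 34.5% of its length, although it has a single accession in the files. Per Gs2 read there were 0.0103 Gs1 reads in the control and 0.0202 after ethanol, a log2 difference of 0.97 (0.38 to 1.56).

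Gs2 showed unlike values on its accessions. NM_078568 held 4434 and 2769 reads, a ratio of 0.666 (0.635 to 0.699), and NM_206685 had 70 and 42 (0.640, 0.426 to 0.952). NM_167284 went the other way in its point value, with 59 and 67 reads and a ratio of 1.21, and its interval of 0.841 to 1.75 included 1. Its share of the gene's reads was 1.29% in the control (0.986% to 1.66%) and 2.33% after ethanol (1.81% to 2.95%), and these intervals do not overlap. NM_078568 was covered over 21.4% and 21.8% of its length, so nearly the same stretch length was read in both libraries. Release 6 of the annotation lists 6 accessions for Gs2, of which the files hold 3.

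Gs2 was the largest part of the summed level of the 10 genes in both libraries, and the sum was lower after ethanol with it and higher without it. Together the members made up 754 RPM in the control and 658 after ethanol. Without Gs2 the sums were 366 and 397. Of the 36 pairs of measured members, whose read ratios do not depend on the scaling, all 8 that held Gs2 had an interval that excluded equal change, as had 11 of the other 28. Against GluRIA the log2 difference of Gs2 was -1.12 (-1.37 to -0.87), and VGlut stood 0.60 (0.48 to 0.71) above Gs2.

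**Figure D3:**
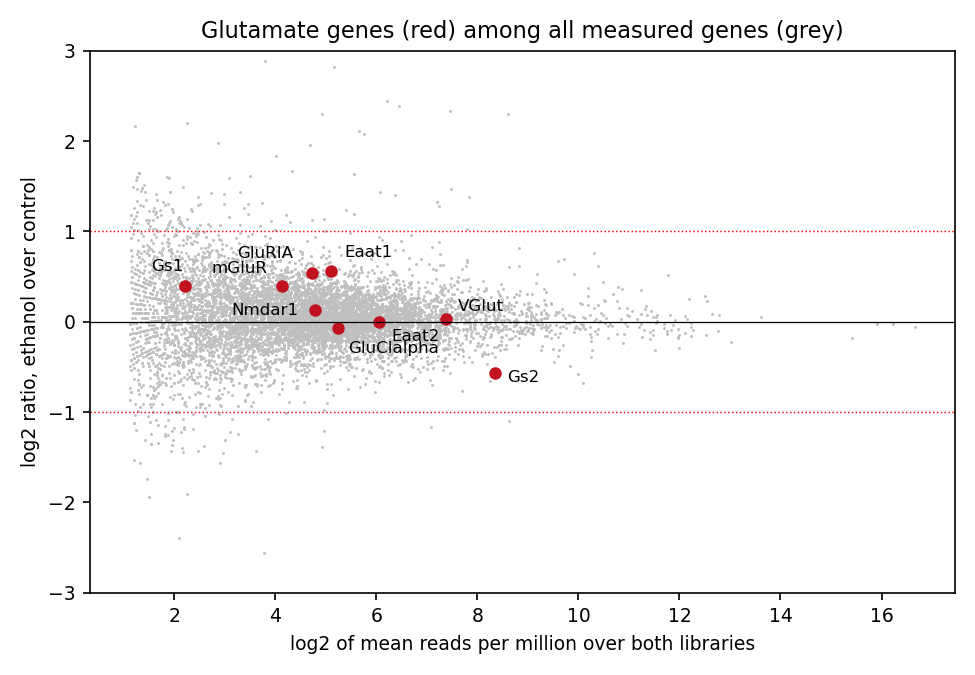
Log2 ratio (ethanol over control) against the log2 of mean RPM for the 7822 measured genes (grey, with 2 beyond the plotted range) and the 9 measured glutamate genes (red), with dotted lines at 2-fold. Gs2, at 324 mean RPM, sits at the lower edge of genes of like level, and Eaat1, GluRIA and mGluR sit above 0.

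Among the receptors, GluRIA encodes an ionotropic subunit related to the vertebrate AMPA receptors. It had 253 control and 346 ethanol reads on NM_057507, or 5.64 and 8.22 RPKM, and was 1.46-fold higher after ethanol (1.24 to 1.72), above 92.3% of measured genes. It was covered over 98.1% and 97.8% of its length. Nmdar1, the obligate subunit of the fly NMDA receptor, had 311 and 318 reads on NM_169059, or 6.32 and 6.89 RPKM, and its ratio of 1.09 had an interval that included 1 (0.930 to 1.28). In relation to each other, there were 1.23 Nmdar1 reads per GluRIA read in the control and 0.919 after ethanol, a log2 difference of -0.42 (-0.75 to -0.085).

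Nmdar2, the partner subunit of Nmdar1, had 14 control reads and 0 ethanol reads, on 1 (NM_001169166) of the 7 accessions that Release 6 lists. This is 1.19 RPM in the control, and a count of 0 allows up to 0.272 in the ethanol library (3 reads). Set against that limit, with the 14 reads taken as exact, the level was at least 4.37-fold lower after ethanol, and the Clopper-Pearson interval gives a bound of 3.11-fold, on an accession covered over 19.7% of its length in the control. These 14 reads are too few to be measured by the rule above, and the other 6 accessions have no reads in the files, so the level of the gene as a whole is not known from them. With an overlapping gene on the opposite strand, inc, which had 1085 and 1004 reads, and with no statement of strand use in the labels or headers, the assignment of so few reads is uncertain.

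GluClalpha is the glutamate-gated chloride channel, an inhibitory receptor of insects and other invertebrates and the target of ivermectin. It had 457 control and 407 ethanol reads, with a log2 ratio of -0.074 (-0.27 to 0.12). NM_142570 held 98.2% of its control reads and 98.5% of its ethanol reads, and each of the other 3 listed accessions had 4 reads or fewer in either library. The metabotropic receptor mGluR, which couples to G proteins and acts at presynaptic terminals of fly motor neurons, had 179 and 221 reads on NM_079900, or 4.58 and 6.03 RPKM. Its ratio of 1.32 had an interval just above 1 (1.08 to 1.61), which included 1 under the stricter interval given with the alternatives. Set against each other, mGluR was apart from GluClalpha (GluClalpha lower by a log2 difference of -0.47, -0.83 to -0.12) but not from Nmdar1 (Nmdar1 minus mGluR -0.27, -0.65 to 0.10) or GluRIA (mGluR minus GluRIA -0.15, -0.53 to 0.23).

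Per length, the order of levels on each gene's leading accession in the control was Gs2 (207 RPKM), VGlut (29.9), Eaat2 (16.3), GluClalpha (9.51), Eaat1 (8.95), Nmdar1 (6.32), GluRIA (5.64), mGluR (4.58), Gs1 (1.66) and Nmdar2 (0.246). Neighbours in this order had 95% Poisson intervals apart in both libraries, except GluClalpha and Eaat1, Nmdar1 and GluRIA, and GluRIA and mGluR. After ethanol, Eaat1 (13.3 RPKM) stood above GluClalpha (9.06) and GluRIA (8.22) above Nmdar1 (6.89), and Gs2 was at 138 RPKM. Because RPKM divides by the whole length, the order changes when the covered part alone is used. Over the covered part the control levels were 969 RPKM for Gs2, 123 for Eaat2, 45.8 for Eaat1, 30.2 for VGlut and 14.1 for GluClalpha, so that both membrane transporters stood above VGlut. Covered length itself depends on depth at low counts, so this second order is given for the members with 317 control reads or more on that accession. That limit is the count of Eaat1 itself. It leaves out Nmdar1, GluRIA and mGluR, which were nearly fully covered and had 6.66, 5.75 and 4.80 RPKM over the covered part.

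**Figure D4:**
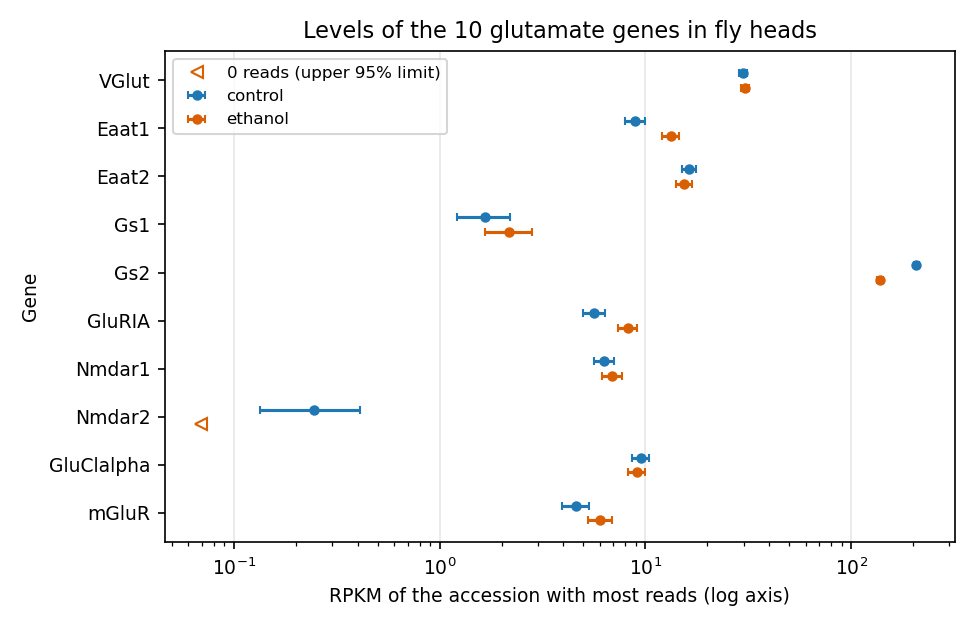
RPKM (log axis) of the accession with most reads of each gene in the control (blue) and ethanol (orange) library, with 95% Poisson intervals that cover counting error only, and an open triangle for the upper limit where no read was counted. Gs2 is highest in both, at 207 and 138 RPKM, and the intervals of the 2 libraries are apart for Gs2, Eaat1, GluRIA and Nmdar2.

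Other genes of the glutamate pathway are listed here as chosen with earlier results of these data known. Over all measured genes, 1.75% were at least 2-fold higher and 0.741% at least 2-fold lower. Intervals lay above 1 for 23.9% and below 1 for 15.0%, which is the background for each list below. Of 12 further receptor family genes, including the muscle subunits GluRIIA to GluRIIE, the kainate-type subunits and the related receptor gene mtt, 7 were measured, of which 1 was at least 2-fold higher and 0 lower (median log2 ratio -0.091). The 1 was Grik, a kainate-type subunit, with 16 and 34 reads (log2 ratio 1.18, 0.28 to 2.14), the fewest of the measured genes in that list. Its reads just reach the floor of 50, and only through the ethanol count, so the floor itself favours a higher ratio here. CG11155, another kainate-type subunit, had 845 and 971 reads (1.23-fold, 1.12 to 1.35), and GluRIIC, a subunit of muscle receptors, 70 and 52 (0.792, 0.543 to 1.15). GluRIB was at 0 reads in both libraries and GluRIIB at 2 and 0.

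Of 10 genes of glutamate metabolism, 9 were measured, 0 passed 2-fold in either direction, 1 had an interval above 1 and 2 below, and the median log2 ratio was 0.023. P5CS, which starts the route from glutamate to proline, had 12353 and 14117 reads (1.22-fold, 1.19 to 1.25). Gad1, which makes GABA from glutamate, had 224 and 252 (1.20, 0.998 to 1.44), and slgA, the proline dehydrogenase gene, 162 and 181 (1.19, 0.959 to 1.48). The 2 with intervals below 1, named after their values were seen, were Gdh, the glutamate dehydrogenase gene (1083 and 876 reads, 0.863, 0.788 to 0.944), and P5CDh1, which oxidises a proline product to glutamate (977 and 791, 0.864, 0.785 to 0.949).

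Of 9 genes of scaffolds and modifiers at glutamatergic synapses, all measured, 0 passed 2-fold, 2 had intervals above 1 and 2 below, and the median was 0.0048. CaMKII, the calcium and calmodulin-dependent kinase, had 104 and 173 reads (1.77-fold, 1.38 to 2.29), counted on 3 of 12 annotated accessions. The scaffold gene veli had 74 and 122 (1.76-fold, 1.31 to 2.38), and dlg1, the PSD-95 relative, 441 and 343 (0.830, 0.718 to 0.958). Of the 8 chloride channels of the family to which GluClalpha belongs, 7 were measured and 0 passed 2-fold, with a median of -0.18. In that list pHCl-1, a pH-sensitive channel, had 70 and 35 reads (0.533, 0.345 to 0.811), Rdl, the GABA receptor, 117 and 66 (0.602, 0.438 to 0.821), and ort, a histamine receptor, 218 and 269 (1.32, 1.10 to 1.58). A list of 10 other transmitter carriers and enzymes had 9 measured genes, 1 of them at least 2-fold higher (CarT, a carcinine transporter, 17 and 37 reads, log2 ratio 1.22, 0.35 to 2.14), and a median of 0.021. In it the GABA transporter Gat of glia had 78 and 110 reads (log2 ratio 0.59, 0.16 to 1.03), and ine 89 and 62 (0.743, 0.528 to 1.04). CarT, like Grik, reached the floor of 50 reads only through its ethanol count.

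**Figure D5:**
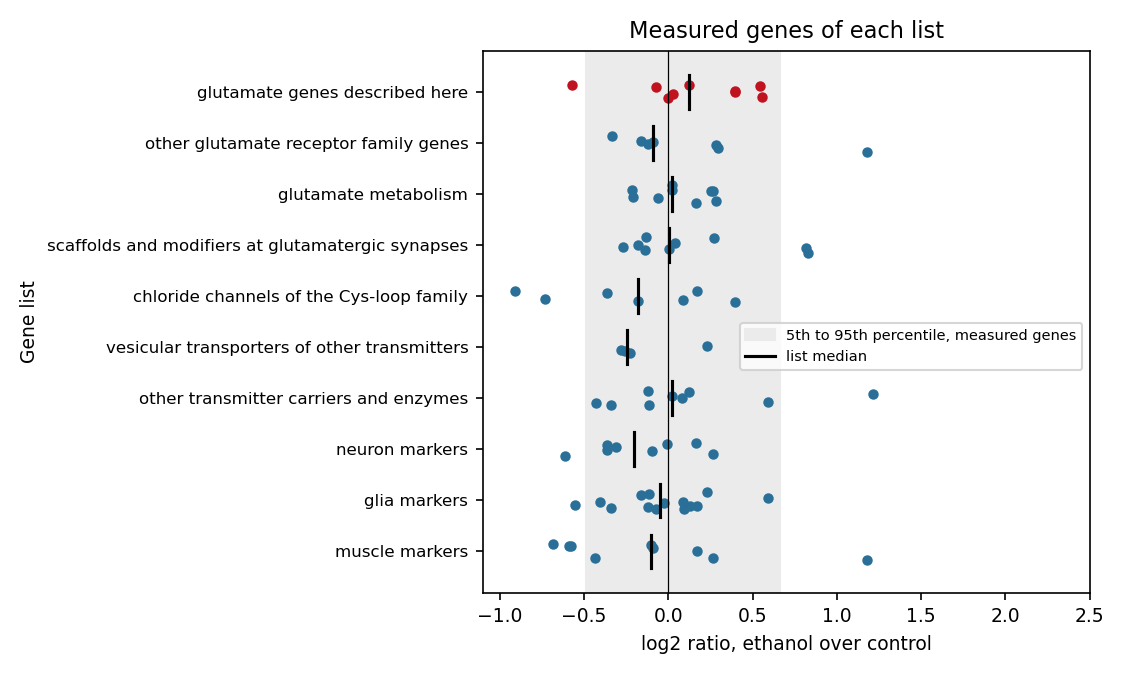
Log2 ratio (ethanol over control) of each measured gene (points, spread vertically at random) in 10 gene lists, with list medians (black bars) and the 5th to 95th percentile of all measured genes (grey band). The 9 glutamate genes (red) run from -0.57 to 0.56 around a median of 0.13, and each other list spans values on both sides of 0.

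Markers of the cell types that use these genes were read in the same libraries. As background to the counts, 23.9% of all measured genes had intervals above 1 and 15.0% below. The 14 measured glia markers had intervals above 1 for 4 genes and below 1 for 4, a median log2 ratio of -0.048 and summed levels of 1104 RPM in the control and 1036 after ethanol. The pan-glial gene repo had 702 and 741 reads (1.13-fold, 1.01 to 1.25), and alrm, which marks astrocyte-like glia, had 1133 and 1128 (1.06-fold, 0.977 to 1.15). The 4 with intervals below 1 were Mdr65, a transporter of the blood-brain barrier (1625 and 1040 reads, 0.683, 0.631 to 0.738), axo (1281 and 906, 0.754, 0.692 to 0.822), Indy (303 and 224, log2 ratio -0.34, -0.60 to -0.089) and e (4179 and 3624, ratio 0.925, 0.885 to 0.967). Gat, given above, had the largest ratio, and moody, another barrier gene, was at 0 in both. The 8 measured neuron markers, of 11, had a median of -0.20 and summed levels of 981 and 864 RPM. Of the 8, 1 had an interval above 1 and 2 below. Appl alone took 677 and 546 RPM, and without it the sums were 305 and 318. Of these markers, fne had 163 and 100 reads (0.654, 0.505 to 0.845) and onecut 1545 and 1743 (1.20, 1.12 to 1.29). Intervals included 1 for elav (66 and 48 reads, 0.776, 0.523 to 1.14) and futsch (96 and 70, 0.778, 0.563 to 1.07). They also included 1 for Syt1 (ratio 1.12), nSyb (0.994) and Rbp9 (0.936). Under the floor, brp had 3 and 2 reads, and para and CadN were at 0. The 9 muscle markers summed to 1859 and 1423 RPM (median -0.10). Act79B, a muscle actin, took 1218 and 815 of these, and without it the sums were 641 and 607. Among the 9, 2 intervals were above 1 and 4 below. Act88F, the flight muscle actin, had 175 and 102 reads (0.622, 0.482 to 0.798), and fln 24 and 51 (2.27, 1.37 to 3.85). The reads of fln, too, reached the floor of 50 only through the ethanol count. Mhc had 45 and 28 reads, with an interval that included 1 (0.664, 0.399 to 1.09). The 9 photoreceptor markers summed to 72100 and 67761 RPM (median -0.014), with Arr1 at 0.23, ninaE at -0.18 and ninaC at -0.10 on the log2 scale. Their intervals were above 1 for 2 genes and below 1 for 4. The 7 fat body markers, of which 6 were measured, summed to 254684 and 246965 (median -0.041), with to at 0.82, apolpp at -0.22 and Lsp2 at -0.21. Of the 6 measured, 1 interval was above 1 and 5 were below. At such depth (1251044 control reads for Yp1) intervals exclude 1 at small differences. The ratio was 0.963 for Yp1 and 0.982 for Yp2 and Yp3. Among the 2479 genes with at least 1000 reads, 627 had intervals below 1 and 789 above. RNA integrity numbers, a scale of intactness, were 6.80 in the control and 6.40 in the ethanol sample. The part of these differences in the glutamate genes' values was not tested.

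The genomic spans of 4 further members, introns included, overlap those of other genes. Only gene starts and ends were compared, and whether exons or reads are shared was not tested. Gs1 overlaps ND-15, a gene of the respiratory chain on the same strand, with 999 and 1141 reads. VGlut overlaps CG18641 on the opposite strand (44 and 20 reads) and Nmdar1 overlaps Itpr (43 and 46 reads). Another gene, Acsx1L, lies inside GluClalpha on the opposite strand (188 and 188 reads). No other gene of the Release 6 annotation overlaps Gs2, Eaat1, Eaat2 or GluRIA. In the authors' deposited table, which compares these 2 libraries rather than the conditions, 5 of the 20 member accessions had a false discovery rate below 0.05, and these were the leading accessions of Gs2, Eaat1, GluRIA, mGluR and Nmdar2. The same held for 17.6% of all 15090 accessions in that table.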

How the data were processed

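Poly(A) RNA of fly heads was sequenced from 1 control and 1 ethanol sample, with TruSeq libraries after oligo-(dT) selection, per the labels' protocols. For every RefSeq accession the authors deposited the count of unique reads, its percent coverage by reads and its RPKM, per the file headers. They also deposited a table with a log2 ratio, a p-value and a false discovery rate per accession, by a test that is not stated. Reads had been placed on build BDGP 5 (per the submitters' processing notes). Aligner, counting tool and versions: not given in the sources used here.

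Of 15090 accessions, 14521 matched a gene of the Release 6 RefSeq annotation, used for names and numbers of accessions, and reads were summed per gene. Overlapping genes came from a separate Release 6 gene annotation, matched by gene name. The members and gene lists were chosen with earlier results of these data known. All 10 members were described whatever their values, with up to 3 genes of each other list that had the largest log2 ratios in either direction, and further genes named to complete a count or as defining markers after their values were seen. A gene of the metabolism list is not reported here and was left out of it. Ratios were of reads scaled by library totals, with Clopper-Pearson intervals (scipy 1.17.1). The interval calculation was run on simulated Poisson counts. These hold counting error alone, so the run could not check the intervals against variation among flies or libraries. With 1 library per group, edgeR's test could not be used, and edgeR 4.0.16 gave the TMM scaling. Alternatives were scaling by TMM, by median of ratios or by totals that leave out the 10 most abundant genes, floors of 1, 20 and 200 reads, a pseudocount of 1 RPKM, summed RPKM, the leading accession alone, lowess trends (fraction 0.3) on length or level removed, a 99.9% interval and 1.5-fold.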

Additional observations from a re-analysis of the deposited data

How the results depend on the processing

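Of 72 values of the 9 measured members under the alternative settings, 71 lay inside the gene's own 95% interval. The exception was VGlut with the length trend removed (log2 ratio 0.19). That setting subtracts the trend fitted at its transcript length of 5496 nt, and the origin of the trend was not tested. Part of the count of 71 was fixed in advance. For members with a single accession in the files, summed RPKM and the leading accession alone must give the main value. Each change of scaling shifts all genes alike. Over the settings, Gs2 ranged from -0.64 to -0.57, Eaat1 from 0.49 to 0.57, GluRIA from 0.47 to 0.58 and mGluR from 0.33 to 0.40. No member was past 2-fold under any setting except with a floor of 1 read, which admits Nmdar2: then 1 member was at least 2-fold lower, and 2 had intervals below 1. The 1.5-fold count was made with the main scaling alone. Gs2 missed that cut there, but passed it with scaling by TMM (log2 ratio -0.62) or by median of ratios (-0.64). With summed RPKM or a pseudocount of 1 RPKM it again fell short (-0.57 in both). The median of the members ranged over scalings and trends from 0.061 (median-of-ratios scaling) to 0.19 (length trend removed), and no scaling moved the median of all genes by as much as 0.1. With the stricter interval, 2 members kept an interval above 1. With the length trend removed 4 had one, VGlut in addition to Eaat1, GluRIA and mGluR. Depth limits Gs1 and Nmdar2 most, and partial coverage limits what Gs2, Eaat1 and Eaat2 counts stand for. No paired analysis was possible because each group has 1 library.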
